A study of Sminthopsis crassicaudata with 9 samples.

Results

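Tight junction genes were followed in the face of the newborn fat-tailed dunnart (Sminthopsis crassicaudata), a small carnivorous marsupial. The members are the claudins CLDN1, CLDN3, CLDN4, CLDN5, CLDN7 and CLDN11, the MARVEL protein occludin (OCLN) and the scaffold proteins TJP1 and TJP3. They were chosen by name, with earlier results of these data known, and 8 of the 9 have a gene model among the 21703 of the count table. No gene model there carries the symbol CLDN5, the claudin of endothelium, so CLDN5 was not analysed here.

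Every sample came from facial tissue of untreated pouch young on the day of birth, given as under 24 hours old for ChIP, so there is 1 condition and no control group. H3K4me3 and H3K27ac were each profiled by ChIP-seq in 2 replicates, for which the labels give pools of 26 and 27 heads, with an input library per pool. RNA was sequenced in 3 libraries (FP1, FP2 and FP3), each a pool of 2 young. The tissue is a mixture of cell types, and in such bulk samples fewer cells of a type and less RNA per cell cannot be told apart. The RNA libraries hold 17419099, 16358621 and 16096971 counts in genes. The peak lists give no read totals, so the depth behind a peak is unknown from them. After a limit on q of 0.05, 108146 H3K4me3 and 148724 H3K27ac peaks were reproducible, meaning that the peaks of both replicates overlapped by 50% or more of one of them.

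Tight junctions seal the space between neighbouring cells of an epithelium or endothelium. Claudins span the membrane and polymerise into strands, and their mixture sets which ions and solutes may pass. Occludin lies in the same strands. The ZO proteins, which include TJP1 (ZO-1) and TJP3 (ZO-3), bind the tails of claudins from inside the cell and tie them to actin. In skin, CLDN1 is required for the barrier against water loss, and CLDN11 is known from myelin and from Sertoli cells of the testis. H3K4me3 marks active promoters, and H3K27ac marks active promoters and enhancers.

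RNA of all 8 genes was detected in every library. Levels are given as TPM, a share of all transcripts corrected for gene length, computed from the deposited counts and the exon length of each gene model. All 8 were above 1 TPM in all 3 libraries, against 75.3% of gene models with a symbol and 56.5% of all gene models, or 83.3% of those with at least 10 counts in total. At 10 TPM, 7 of 8 passed in all 3 libraries, against 49.3% of gene models with a symbol.

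**Figure D1:**
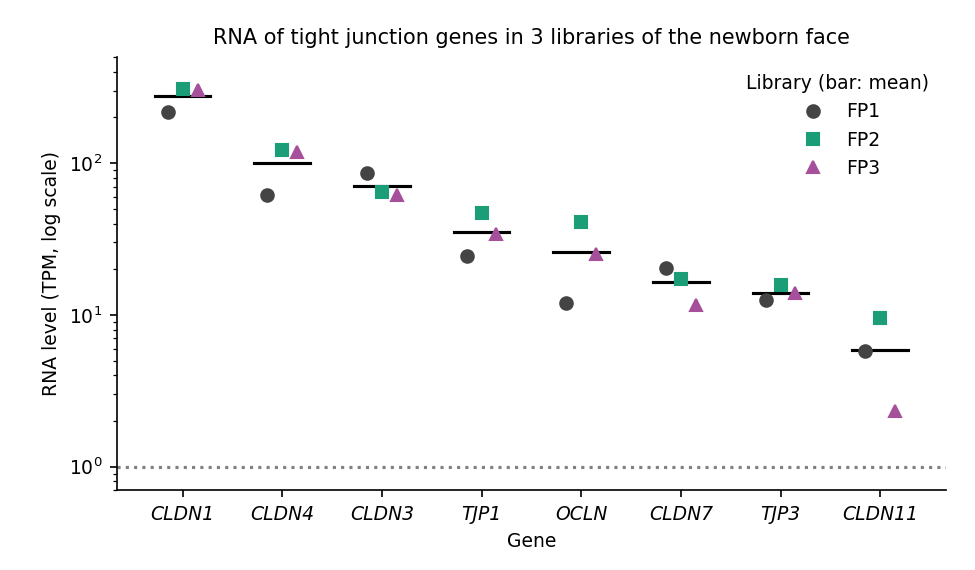
RNA level of each tight junction gene in TPM on a log axis, with 1 point for each of the 3 libraries, a bar at their mean and a dotted line at 1 TPM. CLDN1 stands above the other genes in every library, CLDN11 is lowest in every library, and FP1 lies below FP2 for every gene except CLDN3 and CLDN7.

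CLDN1 had the highest RNA of the members. It stood at 217 TPM in FP1, 306 in FP2 and 303 in FP3, a mean of 275 ± 50.9 (SD, n = 3), and 96.2% of expressed gene models were at or below it. CLDN1 made up 49.3%, 49.1% and 53.3% of the summed TPM of the members in FP1, FP2 and FP3. CLDN4, a claudin of many barrier epithelia, stood at 61.7, 123 and 118 TPM in the same order (101 ± 33.8, SD, n = 3). The ranges of CLDN1 and CLDN4 did not overlap, and CLDN1 was 2.74-fold above CLDN4 in the means. This gap is one of TPM. The read counts of both genes were alike, at 2000, 2326 and 2511 for CLDN1 and 1639, 2683 and 2803 for CLDN4, and the gene model of CLDN1 has 1017 bp of exons against 2929 bp for CLDN4. A gene model that lacks part of a transcript changes its TPM, and this was not tested.

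CLDN3, a close relative of CLDN4, ran the other way across the libraries. It was highest in FP1 at 85.9 TPM and lower in FP2 and FP3 at 64.2 and 61.2 (70.4 ± 13.5, SD, n = 3). CLDN4 was 1.43-fold above CLDN3 in the means, but their ranges overlapped. CLDN4 over CLDN3 was 0.718 in FP1 against 1.91 in FP2 and 1.92 in FP3, and this ratio does not depend on how libraries are scaled to each other. It does depend on exon length, 2929 bp for CLDN4 and 1463 bp for CLDN3. In read counts CLDN4 was above CLDN3 in every library, by 1.44-fold in FP1, 3.83-fold in FP2 and 3.84-fold in FP3. CLDN7, which is found in many simple and stratified epithelia, was at 20.2, 17.2 and 11.6 TPM (16.4 ± 4.36, SD, n = 3). Of the 4 claudins known from epithelia, CLDN3 and CLDN7 were thus highest in FP1, and CLDN1 and CLDN4 were lowest there.

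CLDN11 had the lowest RNA and, as a ratio of the highest to the lowest library, the widest spread. It was at 5.81 TPM in FP1, 9.54 in FP2 and 2.34 in FP3, from 108, 146 and 39 counts, and FP2 was 4.08-fold above FP3. Its mean of 5.90 ± 3.60 TPM (SD, n = 3) was below that of TJP3 by 2.38-fold, and the ranges of the 2 genes did not overlap. Of 8 markers of oligodendrocytes and Schwann cells, which also form myelin, 4 were above 1 TPM in all libraries and 4 were under 1 TPM in all. Their summed level was 25.4, 31.8 and 19.0 TPM in FP1, FP2 and FP3, but the markers did not move together. MBP, a protein of compact myelin, was highest in FP2 like CLDN11, at 4.37, 13.8 and 6.99 TPM. SOX10, a regulator of glial and neural crest cells, was highest in FP1, at 12.8, 10.4 and 7.29 TPM, as was the myelin protein MAG, at 4.32, 3.36 and 2.55, and MOG, a myelin protein of oligodendrocytes, was at 0.03, 0.08 and 0 TPM. The summed level of markers of facial mesenchyme, at 3372, 4745 and 2366 TPM, also had the order of CLDN11 across the libraries. Among them PRRX1, COL1A1, COL1A2 and ALX4 had this order, while TWIST1, PDGFRA and MSX1 did not. The part of glia or of mesenchyme in the CLDN11 level was not tested.

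Occludin was present at a middling level. OCLN was at 12.0, 40.7 and 25.1 TPM (25.9 ± 14.4, SD, n = 3), with FP2 3.40-fold above FP1, and 56.3% of expressed gene models were at or below its mean. TJP1, the scaffold shared by epithelia and many other cells, was at 24.5, 47.1 and 34.0 TPM (35.2 ± 11.3, SD, n = 3). TJP3, a scaffold more restricted to epithelia, was at 12.5, 15.6 and 13.9 TPM (14.0 ± 1.60, SD, n = 3) and had the narrowest spread of the members, with FP2 1.26-fold above FP1. TJP1 was above TJP3 in all 3 libraries, by 1.97-fold in FP1, 3.01-fold in FP2 and 2.44-fold in FP3.

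From high to low, the order by mean TPM was CLDN1, CLDN4, CLDN3, TJP1, OCLN, CLDN7, TJP3 and CLDN11. Neighbours whose ranges over the libraries did not overlap were CLDN1 and CLDN4, CLDN3 and TJP1 (2.00-fold apart), and TJP3 and CLDN11. The ranges overlapped for CLDN4 and CLDN3, TJP1 and OCLN (1.36-fold), OCLN and CLDN7 (1.58-fold), and CLDN7 and TJP3 (1.17-fold). Within libraries, TJP1 was above OCLN in 3 of 3, and each of the other 3 pairs kept its order in 2 of 3. The order is one of TPM. In read counts TJP1, with 8236 bp of exons, was above CLDN3, with 1463 bp, in every library. With 3 libraries of 1 condition no test was made.

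The libraries differed in the same direction for most members. The lowest of the 3 libraries was FP1 for 5 members (CLDN1, CLDN4, OCLN, TJP1 and TJP3) and FP3 for the other 3, whereas FP1 was lowest for 39.1% of expressed gene models. FP3 was most often the lowest library at large, for 6023 of 12250 expressed gene models. The summed TPM of the members was 439 in FP1, 624 in FP2 and 569 in FP3. Of 15 epithelial markers 13 have a gene model (KRT5 and KRT15 have none by symbol), and all 13 were above 10 TPM in every library. FP1 was the lowest library for 9 of these 13, FP2 for 2 (KRT14 and ESRP2) and FP3 for 2 (KRT8 and KRT18). ESRP2 was at 302, 295 and 342 TPM, KRT8 at 290, 294 and 282, and KRT18 at 103, 85.6 and 81.9. Among the 9, E-cadherin (CDH1), the adhesion protein of epithelial cells, was at 41.5, 97.1 and 91.3 TPM. TP63, a regulator of stratified epithelium and also among the 9, was at 28.2, 70.2 and 73.3. The summed epithelial level, at 5591, 4800 and 7582 TPM, did not have this order, since KRT14, the keratin of basal cells, made up most of it with 4372, 2965 and 5840 TPM. Of 11 endothelial markers 9 have a gene model, all 9 were above 1 TPM in every library, and FP1 was the lowest library for 0 of 9. Their summed level was 190, 141 and 134 TPM, far below the epithelial one. All 7 markers of facial mesenchyme were above 1 TPM in every library, with summed levels of 3372, 4745 and 2366 TPM, and FP1 was the lowest library for 1 of 7. The part of epithelial content in the differences between libraries was not tested.

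**Figure D2:**
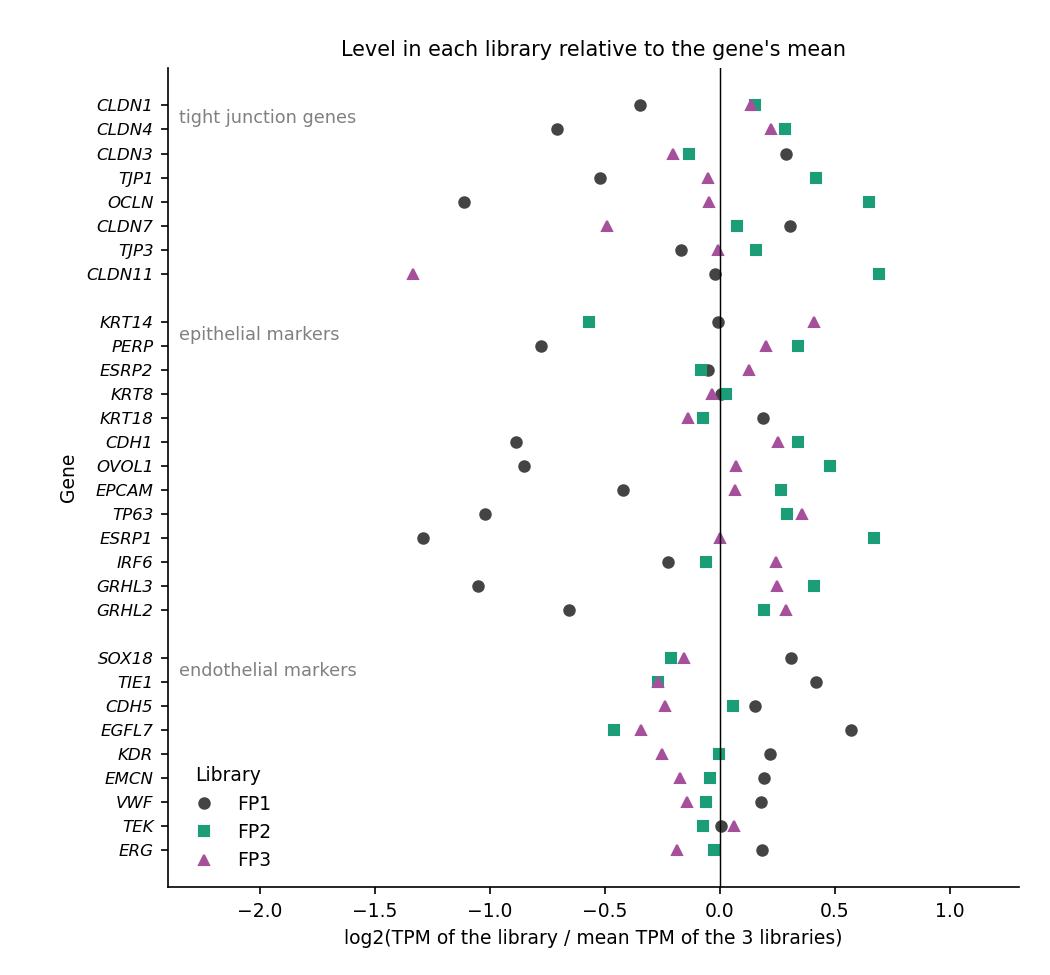
Level in each library relative to the mean of the 3 libraries (log2 ratio of TPM, horizontal axis) for the 8 tight junction genes, 13 epithelial markers and 9 endothelial markers. FP1 (dark circles) lies left of the other libraries for 5 of 8 tight junction genes and 9 of 13 epithelial markers, and for 0 of 9 endothelial markers.

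Both histone marks were present at the start of each gene. All 8 had a reproducible H3K4me3 peak and a reproducible H3K27ac peak at the TSS (edge within 1 kb), and all 16 peaks covered the TSS itself. The background is high, since 83.1% of gene models with a symbol had such an H3K4me3 peak and 85.9% such an H3K27ac peak, and among those above 1 TPM the shares were 90.5% and 92.2%. Presence of both marks thus set the members little apart. Strength was moderate to low. The median over all gene starts with a peak was 43.6-fold over input for H3K4me3 and 23.5-fold for H3K27ac, and 7 of 8 members lay below the first and all 8 below the second.

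The order of strength at the TSS was not that of RNA level. The strongest H3K4me3 was at TJP1, with 49.7-fold over input in replicate 1 and 42.2-fold in replicate 2, followed by OCLN with 41.1-fold and 31.6-fold. CLDN1, with the highest RNA, had 32.0-fold and 26.4-fold, and 35.4% of gene starts with a peak were at or below its mean. CLDN3 had 18.8-fold and 26.1-fold and CLDN4 had 19.1-fold and 23.2-fold, values that overlap between the genes. CLDN11 followed with 11.4-fold and 19.4-fold. The weakest were TJP3 with 7.27-fold and 7.09-fold and CLDN7 with 5.39-fold and 7.18-fold, and only 14.6% and 12.7% of gene starts were at or below these. Replicate values also overlapped between OCLN and CLDN1, between CLDN11 and both CLDN3 and CLDN4, and between TJP3 and CLDN7.

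H3K27ac at the TSS varied less between members. CLDN1 had 20.9-fold and 15.0-fold over input in replicates 1 and 2, and TJP1 had 21.0-fold and 15.1-fold. CLDN3 had 17.5-fold and 11.7-fold, CLDN4 12.9-fold and 15.2-fold, and OCLN 16.7-fold and 8.26-fold, values that overlap between the 3 genes. CLDN7 had 8.93-fold and 12.3-fold, below both values of CLDN4. CLDN11 had 11.5-fold and 5.69-fold, and TJP3 was lowest with 5.93-fold and 5.55-fold. Replicates differed by up to 2.02-fold at OCLN and CLDN11, so few of the steps in this order are resolved.

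The peaks of the 3 claudins with the highest RNA were wide. H3K4me3 at the TSS spanned 4797 bp at CLDN1, 4745 bp at CLDN3 and 4604 bp at CLDN4 in replicate 1, and 4840, 4251 and 5260 bp in replicate 2. A width over 4 kb in replicate 1, a limit set after these values were seen, was reached by 21.3% of all gene starts with a peak and by these 3 of 8 members. The other 5 spanned between 1502 and 2531 bp in replicate 1, against a median of 2498 bp over all gene starts. The wide peak of CLDN1 also covered the TSS of CLDN16, and that of CLDN3 the TSS of LOC116423478, so these 2 peaks each span 2 starts. CLDN4 had a wide peak with no other TSS under it, and it ran from 1150 bp upstream of the TSS to 3453 bp downstream, past the end of the gene's single exon of 2929 bp.

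**Figure D3:**
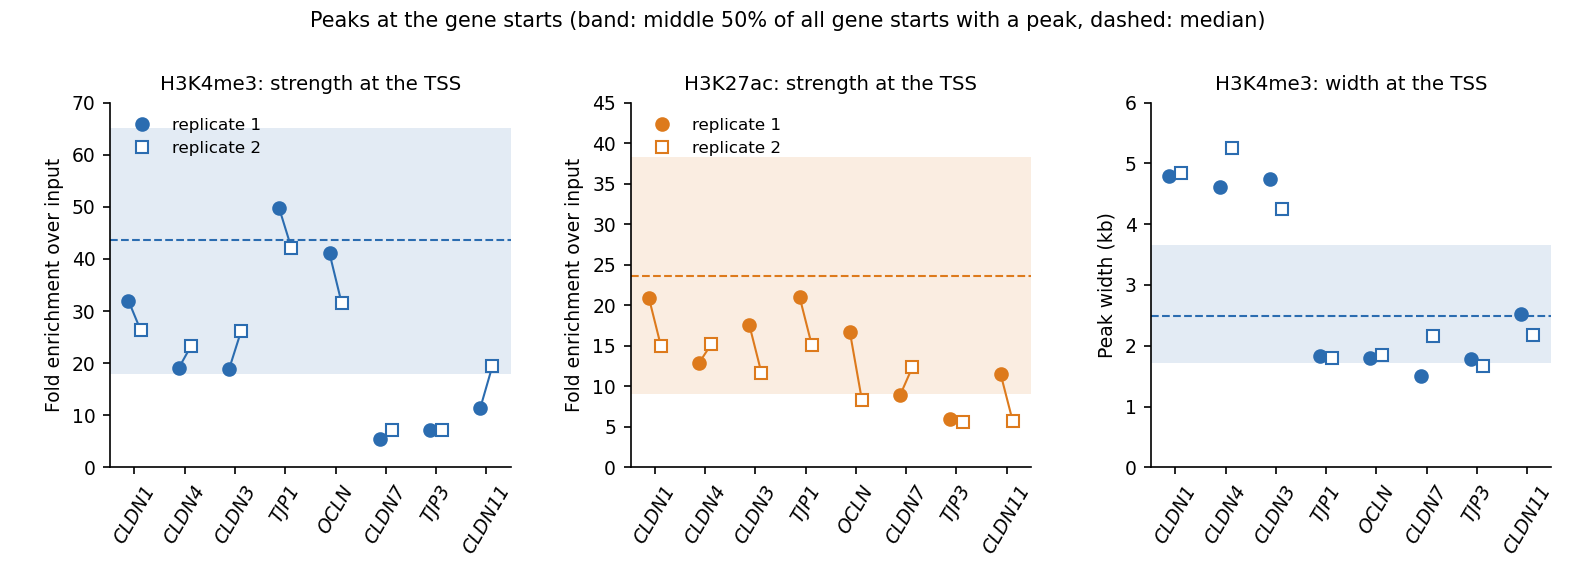
Peaks at the TSS of each gene, ordered by RNA level: fold enrichment over input of H3K4me3 (left) and H3K27ac (middle), and width of the H3K4me3 peak in kb (right), with filled circles for replicate 1 and open squares for replicate 2. Bands and dashed lines give the quartiles and the median over 14691 gene starts with H3K4me3 and 15518 with H3K27ac. CLDN1, CLDN4 and CLDN3 lie above the band for width, and no gene lies above the band for strength.

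Around the TSS the genes fell far apart. Within 100 kb to either side, measured from peak edges, CLDN1 had 21 reproducible H3K4me3 and 49 reproducible H3K27ac peaks, CLDN4 had 39 and 46, CLDN3 had 27 and 37, CLDN7 had 29 and 35, CLDN11 had 18 and 33, and TJP3 had 15 and 27. OCLN had 4 and 6, and TJP1 had 1 and 2. The median over members was 19.5 H3K4me3 and 34 H3K27ac peaks, beside 8 and 13 over all gene models and 9 and 16 over those with a symbol. H3K27ac peaks that shared no base with reproducible H3K4me3 are the class in which distal enhancers are looked for. Their median was 13 over members, beside 5 over all gene models and 6 over those with a symbol. At least 1 such peak was found for 8 of 8 members, and for 93.8% of gene models with a symbol.

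These windows are shared with other genes. The median number of other starts in the window was 4 over members, beside 3 over all gene models and 2 over those with a symbol. CLDN3 and CLDN4 lie 61.2 kb apart, and 23 H3K4me3 and 28 H3K27ac peaks fell in both of their windows. Over all windows there were 131 distinct H3K4me3 and 207 distinct H3K27ac peaks. The member was the nearest TSS for 20.8% of H3K4me3 and 19.6% of H3K27ac peaks counted over the windows, and a peak near a gene is not thereby known to act on it.

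**Figure D4:**
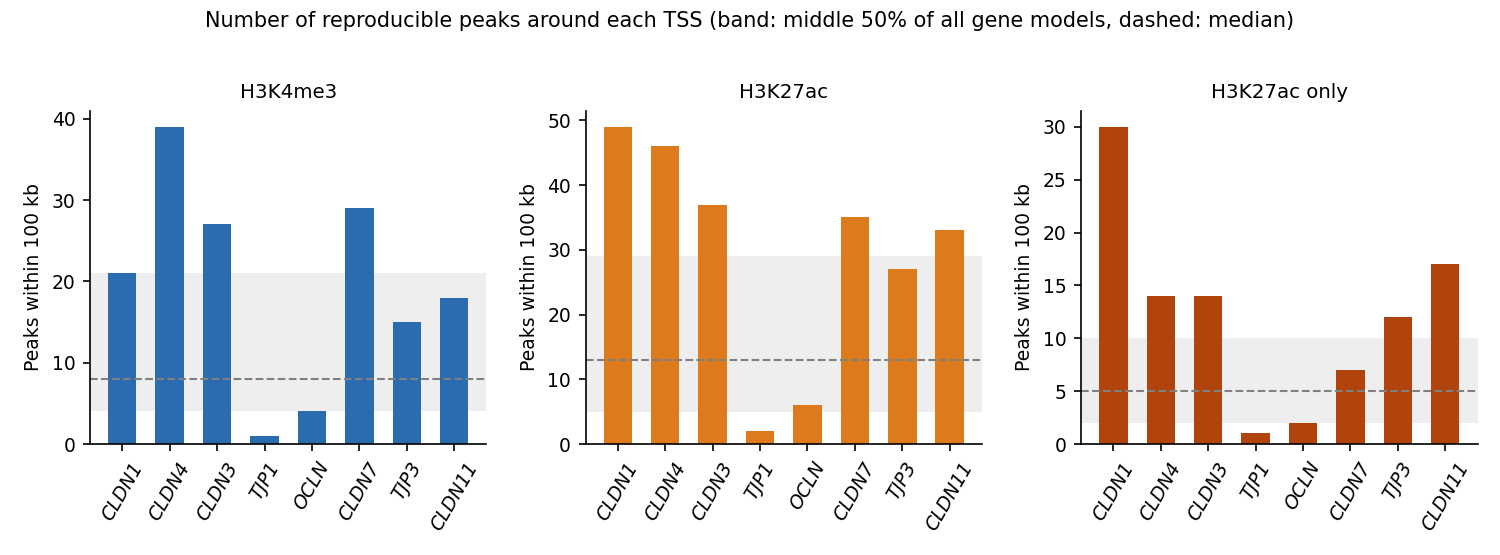
Number of reproducible H3K4me3 peaks, H3K27ac peaks and H3K27ac peaks without H3K4me3 within 100 kb of each TSS, with grey bands for the middle 50% of all 21703 gene models and a dashed line at their median. At this limit on q, CLDN1 has 30 H3K27ac peaks without H3K4me3, the most of the members, and TJP1 and OCLN lie at or below the lower edge of the band for that class.

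CLDN1 (scaffold00029_pilon_pilon, from 33383585 to 33407881 on the plus strand of the study's own dunnart assembly, 4 exon records) had the most H3K27ac peaks of the members at a q under 0.05, although CLDN4 and CLDN3 had more sequence under such peaks (78.6 and 58.9 kb against 55.4 kb). At a q under 1e-05 CLDN1 had 25, fewer than CLDN4 with 40, CLDN3 with 27 and CLDN7 with 26. CLDN1 also had fewer than CLDN4 in windows of 50 kb (22 against 23) and 200 kb (81 against 85). Of its 49 reproducible H3K27ac peaks, 30 carried no H3K4me3, and 99.9% of gene models had as many or fewer. At a q under 1e-05 there were 18, against 24 at CLDN4. There were 17 of the 30 upstream of the TSS, 3 in the gene body and 10 downstream. Their fold enrichment was low, from 2.90 to 6.33 with a median of 4.36, beside 18.0 for the peak at the TSS. The nearest TSS was CLDN16 for 12 of them, CLDN1 for 11, LOC116422173 for 5 and P3H2 for 2. CLDN16, the claudin of magnesium transport in the kidney, starts 1081 bp away on the other strand and was at 0, 0.02 and 0.07 TPM. The strongest H3K27ac peak away from the TSS of CLDN1 and CLDN16 lay 29.2 kb downstream of the TSS, beyond the end of the gene, at 11.4-fold and 13.9-fold, with H3K4me3 at 7.19-fold and 6.85-fold. In the gene body of CLDN1, touching no exon, peaks without H3K4me3 lay at 12.5 kb (5.49-fold and 5.68-fold) and 16.0 kb (6.10-fold and 4.74-fold). CLDN16 and P3H2 also flank CLDN1 in the RefSeq annotation of another dunnart assembly (ASM4859323v1), with TP63 next beyond P3H2.

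CLDN3 (scaffold00002_pilon_pilon, from 182721388 to 182722850, minus strand) and CLDN4 (same scaffold, from 182784028 to 182786956, plus strand) have gene models of a single exon and point away from each other. Each had 14 H3K27ac peaks without H3K4me3, at or above 88.1% of gene models. For 1 of 14 the nearest TSS was CLDN3 in its own window, and for 3 of 14 it was CLDN4. The strongest H3K27ac peaks of the locus away from the claudin starts lay over the start of ABHD11 (46.8 kb downstream of the CLDN3 TSS, 23.7-fold and 22.2-fold), and near METTL27 (17.3 kb downstream of the CLDN4 TSS, 21.6-fold and 15.5-fold). ABHD11 was at 373, 202 and 194 TPM, so like CLDN3 it was highest in FP1, and METTL27 was at 3.08, 2.20 and 1.80 TPM. Downstream of CLDN4, at 38.7, 43.6, 47.2 and 53.2 kb from its TSS, 4 further H3K27ac peaks had means between 12.3-fold and 16.0-fold, about as strong as the 14.0-fold at the CLDN4 TSS. The nearest TSS to these 4 was TMEM270, at 0, 0 and 0.15 TPM.

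CLDN7 (scaffold00112_pilon_pilon, from 2223377 to 2226916, minus strand, 5 exon records) sits among 12 other starts within 100 kb. Of the 29 H3K4me3 peaks of its window 13 were stronger than its own, and for 3 of 29 it was the nearest TSS. Its neighbours included GABARAP at 351 ± 19.3 TPM, CTDNEP1 at 155 ± 20.1 and EIF5A at 685 ± 81.1 (SD, n = 3), all far above CLDN7 at 16.4. The H3K4me3 peak 10.4 kb downstream, over the starts of CTDNEP1 and LOC100929930, had 59.8-fold and 81.9-fold against 5.39-fold and 7.18-fold at CLDN7. The H3K27ac peak that covers the CLDN7 TSS had its summit 1738 bp downstream, inside the gene, where H3K4me3 also had a peak of its own in replicate 1 at 7.19-fold. In replicate 2 a single H3K4me3 peak of 2169 bp, at 7.18-fold, took in both. Of the 7 H3K27ac peaks without H3K4me3 in this window, 0 had CLDN7 as nearest TSS.

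CLDN11 (scaffold00023_pilon_pilon, from 2794509 to 2815715, plus strand, 3 exon records) had 17 H3K27ac peaks without H3K4me3, at or above 93.4% of gene models, although it had the lowest RNA. For 1 of the 17 CLDN11 was the nearest TSS. It lay in the gene body, 9.41 kb from the TSS, with 4.59-fold and 6.64-fold. SKIL, an inhibitor of TGF-beta signalling that starts 47.1 kb upstream on the same strand, had the strongest peak of the window, with H3K4me3 at 82.9-fold and 97.9-fold, and was at 15.5, 20.5 and 17.3 TPM. At CLDN11 itself both marks were modest. Its replicates stood further apart in ratio than at any other member for H3K4me3 (1.70-fold). For H3K27ac (2.02-fold) they stood further apart than at any other member but OCLN.

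OCLN (scaffold00014_pilon_pilon, from 31650382 to 31702528, minus strand, 12 exon records) lay in a sparse region. All 4 of its H3K4me3 peaks were shared with H3K27ac, and 3 of the 4 were strong and stood at starts, its own, GTF2H2 62.2 kb downstream and MARVELD2 82.3 kb upstream. MARVELD2 is tricellulin, the MARVEL protein of tricellular contacts. Its H3K4me3 was 51.8-fold and 78.9-fold, above the 41.1-fold and 31.6-fold of OCLN, while its RNA at 6.40, 7.77 and 6.57 TPM was below that of OCLN in every library. Both H3K27ac peaks without H3K4me3 lay nearer to GTF2H2 than to OCLN.

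TJP1 (scaffold00038_pilon_pilon, from 16334311 to 16644045, plus strand, 37 exon records) had the strongest H3K4me3 at the TSS of the members and the fewest peaks around it. No other start lies within 100 kb. Beside the peaks at its TSS there was a single reproducible one, an H3K27ac peak 51.4 kb into the gene at 3.49-fold and 4.32-fold. Only 7.93% of gene models had as few or fewer H3K4me3 peaks and 9.69% as few or fewer H3K27ac peaks. The gene spans 310 kb, so most of its body lies outside the window.

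TJP3 (scaffold00018_pilon_pilon, from 16887140 to 16948442, plus strand, 22 exon records) had a stronger peak inside the gene than at the annotated start. H3K4me3 lay over the second exon, with its summit 20.3 kb downstream of the TSS, at 18.7-fold and 20.9-fold over 1554 bp, against 7.27-fold and 7.09-fold at the TSS. H3K27ac at the same exon was 12.3-fold and 14.9-fold, against 5.93-fold and 5.55-fold at the TSS. For both marks the replicates of the inner peak and of the TSS peak did not overlap. Of 12 H3K27ac peaks without H3K4me3, 7 lay in the gene body, and for 1 of the 12, 4.59 kb from the TSS, TJP3 was the nearest start. No gene model starts at the inner peak, and counts per gene do not tell from which start its RNA came. The strongest peak of the window, at the starts of APBA3 and MRPL54 near the end of TJP3, had H3K4me3 at a mean of 56.3-fold.

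**Figure D5:**
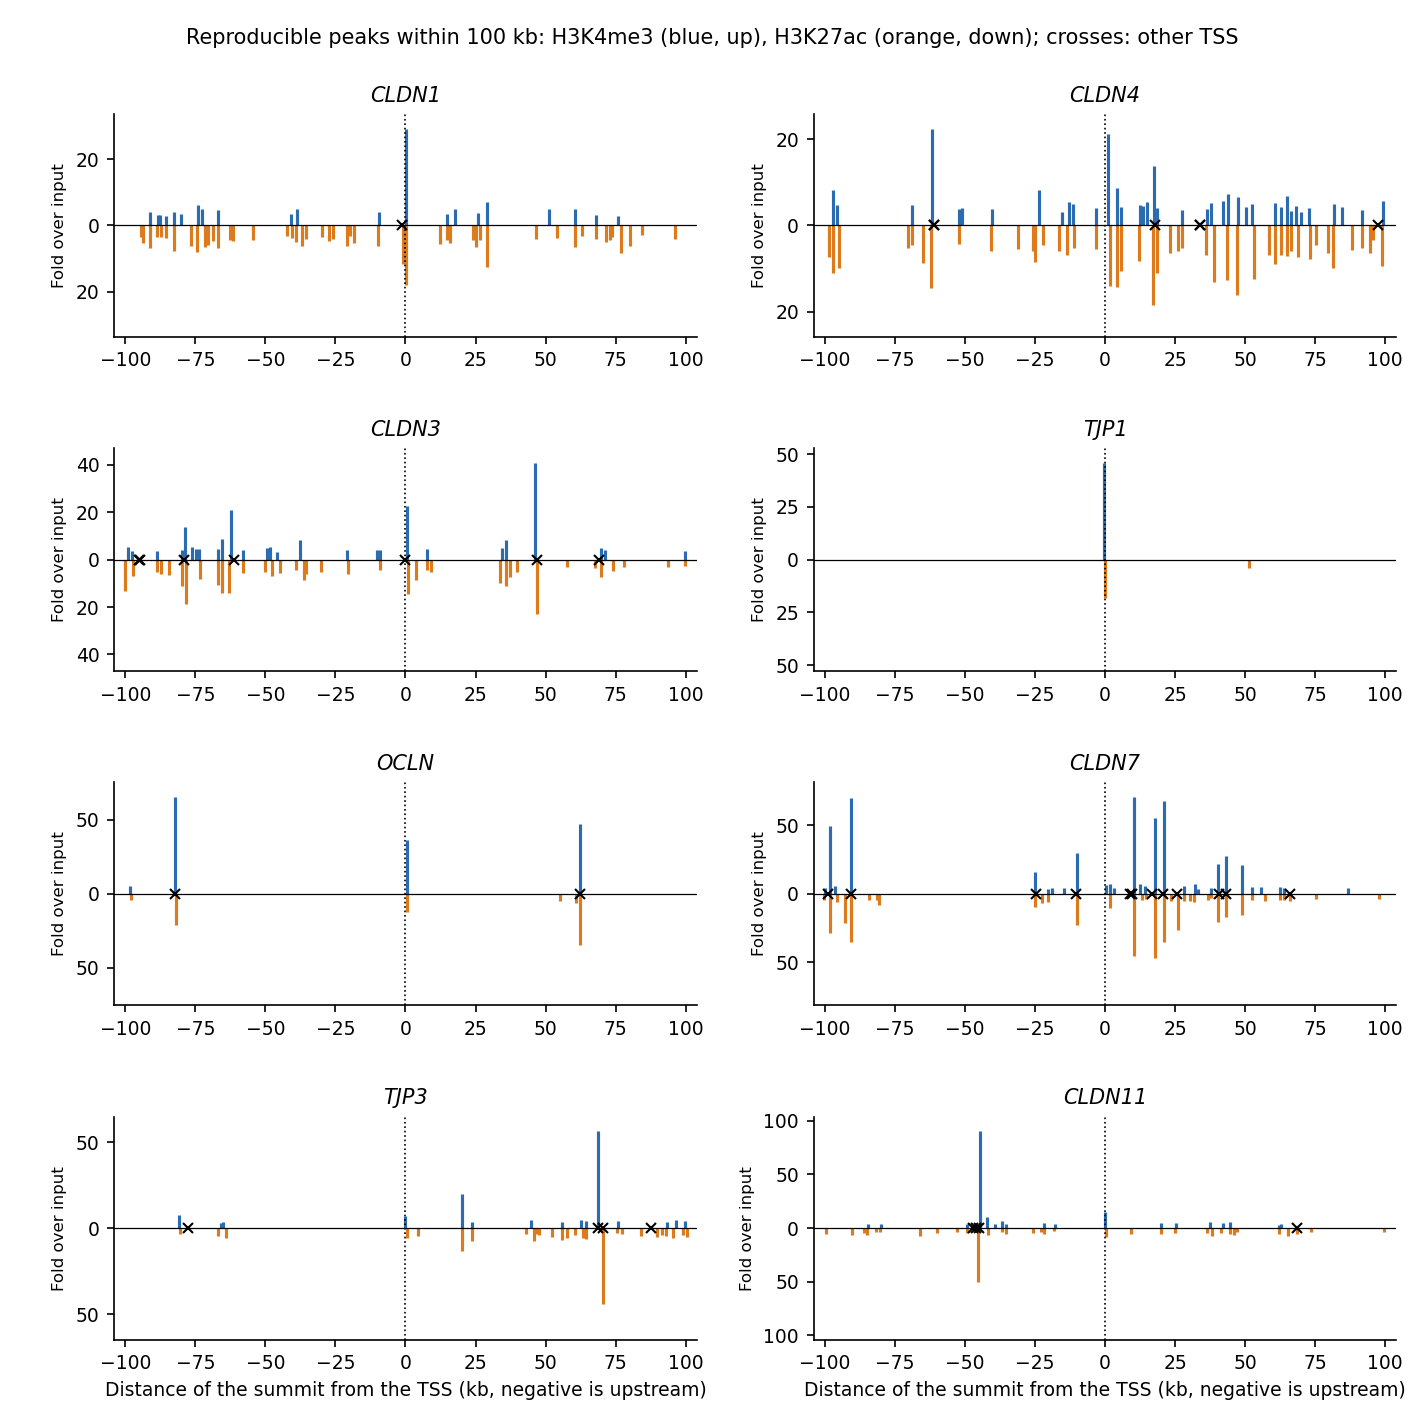
Reproducible peaks within 100 kb of each TSS, drawn at the distance of the summit from the TSS in kb, with mean fold enrichment over input upward in blue for H3K4me3 and downward in orange for H3K27ac, on a scale of its own for each gene. Crosses mark other starts, and the plots show many weak peaks around CLDN1, strong peaks of neighbours around CLDN7 and CLDN11, and 1 isolated start at TJP1.

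Many other genes of the tight junction were also detected, in shares near those of genes at large. Of 51 other symbols for its proteins 43 have a gene model. PALS1, without a gene model by symbol, and MPP5, with one, are names of the same gene. Of the 43, 35 were above 1 TPM in all libraries, 36 had H3K4me3 and 35 had H3K27ac at the TSS. The shares of gene models with a symbol were 75.3%, 83.1% and 85.9%. The median of the 43 was 17.2 TPM, beside 30.6 for the members and 20.6 for all expressed gene models. The highest levels were those of YBX3 (ZONAB), a transcription factor that binds TJP1, at 475, 567 and 607 TPM, of SYMPK (symplekin), known for RNA processing as well as junctions, at 132, 93.7 and 80.8, and of F11R (JAM-A), an adhesion protein of the junction, at 89.7, 96.6 and 117. Of the 43, 8 did not pass 1 TPM in all libraries, namely CLDN14, CLDN15, CLDN16, CLDN18, CLDN19, CLDN20, CLDN34 and MAGI2. FP1 was the lowest library for 19 of the 35 that passed and FP3 for 13. Of 12250 expressed gene models, FP1 was lowest for 39.1% and FP3 for 6023, the most of any library.

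Among the other claudins, named here after their values were seen, CLDN17 and CLDN6 had the highest mean TPM. CLDN6, an early epithelial claudin, was at 24.0, 18.2 and 18.0 TPM, and like CLDN3 and CLDN7 it was highest in FP1. CLDN17 was at 3.15, 37.6 and 28.7 TPM with no peak of either mark at its TSS.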

How the data were processed

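ChIP-seq and RNA-seq of craniofacial tissue of 1 age were used. For ChIP the authors used cutadapt (1.9.1) for trimming, Bowtie2 (2.3.5.1) for alignment to their own assembly, Picard (2.23.1) for duplicates and, for peaks of each replicate over its input, MACS2 (2.1.1). The deposited peak lists give fold enrichment over input, a ratio, and -log10 of p and q. The authors aligned RNA reads with HISAT2 (2.21) and made unscaled counts per gene with featureCounts (2.0.1), for pairs of reversed strand, on Tasmanian devil models moved to the assembly. The deposited table adds exon length.

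TPM was computed over 21692 gene models. Another 11, written on 2 lines, kept their positions only. The TSS is the outermost exon end. Fold enrichment of a reproducible peak is the mean of both replicates, and its interval that of replicate 1. Library columns match the RNA group but no single sample. No genome sequence of this build was used.

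Members, gene lists and markers were chosen with earlier results of these data known. Named were the members, the 3 highest of the other tight junction genes, marker genes and neighbours within 100 kb. Overlap, TPM and window counts were tested on simulated data. Computation used Python (3.11.15), pandas (2.3.3), and R (4.3.3) with edgeR (4.0.16) for TMM factors only.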

Additional observations from a re-analysis of the deposited data

How the results depend on the processing

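All 8 members stayed above 1 TPM in all libraries, and kept both marks at the TSS, under every scaling, overlap rule, q limit and TSS distance tried and without any single library or replicate, and 7 of 8 passed at 5 or 10 TPM, where CLDN11 did not. Within FP1 alone 3 of 8 members held their rank by TPM, and without single libraries 6 (without FP1) to 8 did. Window counts depend on their limits. The median of H3K4me3 peaks was 19.5, but 7 at q under 1e-05 and 27 to 31 in single replicates, and that of H3K27ac peaks 34, but 22 at q under 1e-05. For CLDN1 the 30 H3K27ac peaks without H3K4me3 became 18 at q under 1e-05, while for CLDN4 the 14 became 24, since fewer H3K4me3 peaks remained to overlap. A window of 50 kb gave medians of 10 H3K4me3, 18.5 H3K27ac and 5 H3K27ac-only peaks, and one of 200 kb gave 42, 65 and 23. The member was the nearest start for 20.1% of all window peaks, and for 25.7% when only genes with a symbol were used. Replicates of the same number have the same pool size for both marks in the labels. No paired analysis was made, since no result comes from a test. The depth behind a peak is unknown from the peak lists, and 2 replicates give no more than a range.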
